A study of Mus musculus with 12 samples.

Results

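Regulators of G protein signalling (RGS proteins) are described here through 8 genes, Rgs1, Rgs2, Rgs3, Rgs10, Rgs14, Rgs16, Rgs18 and Rgs19, of 50090 gene names carried by the array. The genes were chosen by name, with earlier results of these data known. Every probe with the symbol of a member was taken, which gave 15 probes of 61307. Each gene is given by its brightest probe, and the other probes are described where they differ. The brightest probes of all 8 genes were well above background on all 12 arrays, and none was saturated.

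The arrays measured RNA of resting B (RB) cells from spleens of BALB/c mice, with 2 arrays for each of 6 conditions after 4 h of culture. The conditions were unstimulated cells, Pam2CSK4 (a synthetic lipopeptide that is a ligand of TLR-2), anti-CD86, anti-CD86 with Pam2CSK4 (TLR2.CD86), anti-CD40, and anti-CD40 with Pam2CSK4 (TLR2.CD40). The labels describe female mice that were 6 weeks old, whereas the methods name mice of both sexes. The methods state that RB cells were obtained by removing CD43-bearing cells, and that anti-CD86 was biotinylated and cross-linked with streptavidin, and the study's legends describe biological replicates. All 8 markers of B cells that were measured (Cd79a among them) were well above background on all arrays, and so were 6 of 7 T cell, 4 of 5 NK cell, 9 of 9 myeloid and 5 of 9 platelet and megakaryocyte markers.

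Receptors that couple to G proteins switch on the alpha subunit by loading it with GTP. RGS proteins bind the active alpha subunit and speed the hydrolysis of GTP, so that the signal ends sooner. In B cells the best known target is the signal of chemokine receptors that couple to Gi, and Rgs1 is the member most often linked to weaker responses of B cells to chemokines.

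Levels are log2 signal minus the 75th percentile of the array, so that a level of 0 equals that percentile, and a difference of 1 is a 2-fold change. Differences were tested with limma over all 31599 probes that passed the filter on dim probes, and a gene was called when its Benjamini-Hochberg adjusted p was under 0.05. The arrays lay on 2 slides. Slide 1 held 8 arrays, including both unstimulated and both TLR2.CD40 arrays, and the other conditions had 1 array on each slide. On slide 2 the level was lower for 6 of the 8 members (by 0.15 to 0.34 on the log2 scale) and higher for Rgs3 (by 0.45), each with an adjusted p under 0.05 in limma with slide and condition as terms, whereas Rgs16 differed by -0.09 (adjusted p = 0.358). Over all probes 39.3% were lower and 17.9% higher on slide 2. For the members, the calls that slide as a block added are therefore given, with the value within slide 1 for members called without it. The up to 3 genes chosen from each other list, for their largest called changes, had 54 called differences from unstimulated cells. All 54 were also called with slide as a block. The genes were chosen by their calls and the block added calls over all probes, so this does not show that list counts are unaffected. Counts for the other lists are without the block unless stated.

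For TLR2.CD86, 3 of the 8 members were lower than in unstimulated cells, against 7.38% of all probes tested. For anti-CD40 3 of 8 were lower, against 10.7% of probes, and for TLR2.CD40 2 of 8 were lower, against 9.70%. With Pam2CSK4 alone 0 of 8 passed the limma test, against 0.0443% of probes called lower, and 2 had an unadjusted p under 0.05 (15.8% of all probes). With anti-CD86 alone 0 of 8 passed, against 1.19% of probes, and 4 had an unadjusted p under 0.05 (23.2% of all probes). No member was called higher by its brightest probe in any of these 5 comparisons. In the test of a difference between any of the 6 conditions 2 of 8 passed, Rgs2 and Rgs16, against 20.4% of all probes. The calls rested on the full set of arrays and on the scaling: without either unstimulated array, under median scaling, or with no filter on dim probes, 0 of 8 passed in limma in each of these comparisons, with 0 to 6 members at an unadjusted p under 0.05. The count was also 0 for TLR2.CD86 without its slide 2 array, for anti-CD40 without its slide 2 array and for TLR2.CD40 without either of its arrays, where 1 to 4 members had an unadjusted p under 0.05. In these settings 6 to 8 of the 8 members were below the unstimulated level. Calls over all probes also fell under median scaling, from 5763 to 464 with TLR2.CD40 and from 6447 to 1013 over the 6 conditions.

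The median difference of the 8 members from unstimulated cells was -0.28 with Pam2CSK4, -0.36 with anti-CD86, -0.46 with TLR2.CD86, -0.52 with anti-CD40 and -0.36 with TLR2.CD40. The medians over all probes were -0.07, -0.05, -0.03, -0.02 and 0.01 in the same order. These 5 comparisons share both unstimulated arrays. Scaling to the array median instead would move the median of all probes by -0.20, -0.14, -0.29, -0.57 and -0.11 in that order, so the differences below are relative to the 75th percentile.

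**Figure D1:**
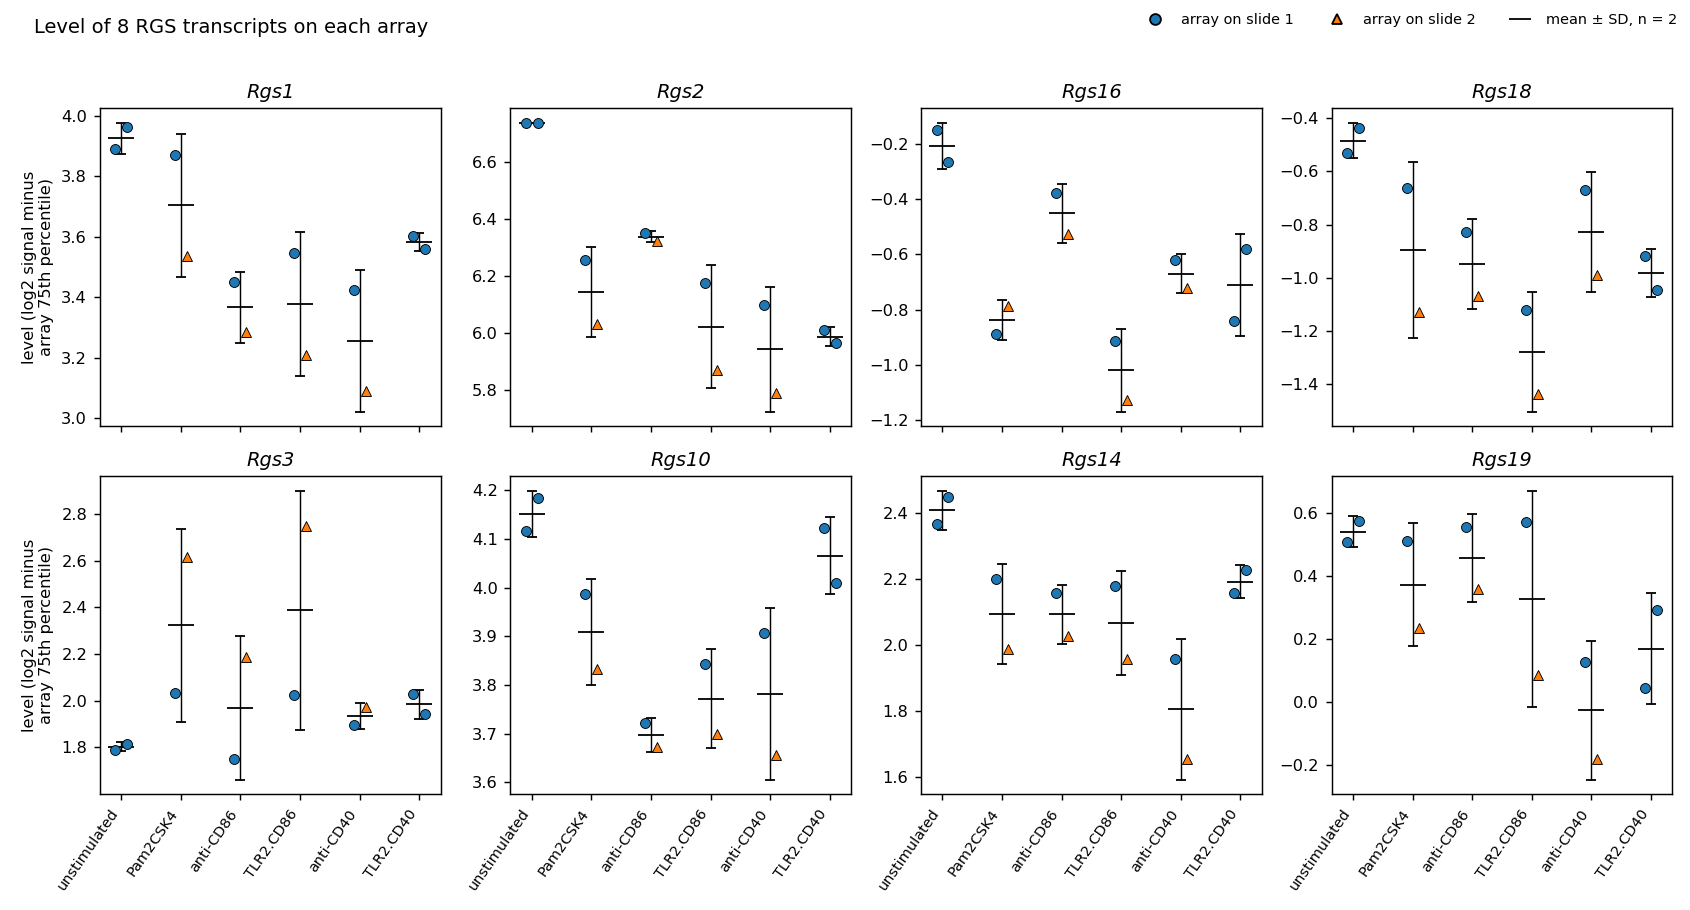
Level of each of the 8 RGS transcripts (y axis, log2 signal minus the 75th percentile of the array) on the 12 arrays, by condition (x axis). Circles are arrays on slide 1, triangles are arrays on slide 2, and bars are mean and SD of 2 arrays. All 10 stimulated arrays lie below both unstimulated arrays for Rgs1, Rgs2, Rgs14, Rgs16 and Rgs18. Rgs3 has its lowest mean in unstimulated cells.

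The unstimulated cells had the highest mean level for 7 of the 8 members, Rgs3 being the exception. All 10 stimulated arrays lay below both unstimulated arrays for 5 members, Rgs1, Rgs2, Rgs14, Rgs16 and Rgs18, as did 16.6% of all probes tested. When each stimulation was taken on its own, both of its arrays lay below both unstimulated arrays for 6 members with Pam2CSK4, against 37.7% of probes. The count was 6 with anti-CD86 (37.0% of probes), 6 with TLR2.CD86 (36.6%), 7 with anti-CD40 (35.7%) and 6 with TLR2.CD40 (37.5%). Among the ordered mean levels of each gene, 7 of 40 neighbouring pairs of conditions differed by more than their summed SD with arrays that did not overlap. In 4 of these the upper neighbour was the unstimulated condition (Rgs2, Rgs14, Rgs16 and Rgs18), so that the order among the stimulations was mostly within the spread of the arrays.

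Rgs2, a member of the R4 subfamily that acts mainly on Gq, fell in the most comparisons. Its probe was at 6.74 and 6.74 on the unstimulated arrays. It was at 6.26 and 6.03 with Pam2CSK4, 6.35 and 6.33 with anti-CD86, 6.18 and 5.87 with TLR2.CD86, 6.10 and 5.79 with anti-CD40, and 6.01 and 5.97 with TLR2.CD40. The unstimulated arrays stood above all others without overlap, and anti-CD86 came next, above Pam2CSK4 by more than their spread, while the other stimulations did not differ beyond it. Rgs2 fell by 0.79 ± 0.15 (SE, n = 2 per condition) with anti-CD40 (limma adjusted p = 0.0146), which is 1.73-fold. It fell by 0.75 ± 0.15 with TLR2.CD40 (adjusted p = 0.0125 in limma) and by 0.72 ± 0.15 with TLR2.CD86 (adjusted p = 0.0284 in limma). With Pam2CSK4 the difference was -0.59 (limma adjusted p = 0.163), and with anti-CD86 it was -0.40 (limma adjusted p = 0.170).

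On slide 1 alone, the difference of Rgs2 from the mean of the unstimulated arrays was -0.64 with anti-CD40, -0.75 with TLR2.CD40, -0.56 with TLR2.CD86, -0.48 with Pam2CSK4 and -0.39 with anti-CD86. As a block, slide gave a call for Rgs2 in all 5 comparisons, with differences of -0.29 to -0.75.

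The array holds a second Rgs2 probe. The first 30 of the 60 bases of both probes are shown, since they report the same transcript (NM_009061) at different signal. 
Rgs2 brightest probe (P419768): agggtgttgacgttcttaggactacagatc
Rgs2 other probe (P378968): ctatttgccaaaagaaatagtctttatgac
The dimmer probe lay at -0.77 and -0.91 on the unstimulated arrays, and at -1.67 and -1.87 with anti-CD40 and -1.79 and -1.80 with TLR2.CD40. It fell by 0.93 ± 0.14 with anti-CD40 (limma adjusted p = 0.00754) and by 0.95 ± 0.14 with TLR2.CD40 (limma adjusted p = 0.00391). With TLR2.CD86 it differed by -0.49 and did not pass (limma adjusted p = 0.0658). It was also called, with slide as a block, with TLR2.CD86 (-0.39, limma adjusted p = 0.0119). It was lower with TLR2.CD40 than with Pam2CSK4 (-0.55, limma adjusted p = 0.04999). Both Rgs2 probes were lower with either anti-CD40 condition.

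Rgs16, which acts on Gi and Gq, fell with both combinations. It was at -0.15 and -0.27 on the unstimulated arrays, at -0.89 and -0.79 with Pam2CSK4, -0.38 and -0.53 with anti-CD86, and -0.92 and -1.13 with TLR2.CD86. It was at -0.62 and -0.72 with anti-CD40 and at -0.84 and -0.58 with TLR2.CD40. The anti-CD86 arrays were nearest to the unstimulated arrays, and both TLR2.CD86 arrays were the lowest. Rgs16 fell by 0.81 ± 0.14 with TLR2.CD86 (1.76-fold, limma adjusted p = 0.0163) and by 0.51 ± 0.14 with TLR2.CD40 (limma adjusted p = 0.0375). The difference was -0.63 with Pam2CSK4 (limma adjusted p = 0.126), -0.46 with anti-CD40 (limma adjusted p = 0.0532) and -0.25 with anti-CD86 (limma adjusted p = 0.328).

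The values of Rgs16 within slide 1 were -0.71 with TLR2.CD86, -0.51 with TLR2.CD40, -0.68 with Pam2CSK4, -0.41 with anti-CD40 and -0.17 with anti-CD86. Rgs16 was also called, with slide as a block, with Pam2CSK4 and anti-CD40. One probe represents this gene.

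Rgs1, the member best known in B cells, fell with anti-CD40. It was at 3.89 and 3.96 on the unstimulated arrays. It was at 3.87 and 3.54 with Pam2CSK4, 3.45 and 3.28 with anti-CD86, 3.55 and 3.21 with TLR2.CD86, 3.42 and 3.09 with anti-CD40, and 3.60 and 3.56 with TLR2.CD40. One Pam2CSK4 array was just below the unstimulated arrays, and the other stimulated arrays were lower still. Rgs1 fell by 0.67 ± 0.18 with anti-CD40 (1.59-fold, limma adjusted p = 0.0383), and by 0.50 within slide 1. The difference was -0.56 with anti-CD86 (limma adjusted p = 0.117), -0.55 with TLR2.CD86 (limma adjusted p = 0.0810), -0.34 with TLR2.CD40 (limma adjusted p = 0.213) and -0.22 with Pam2CSK4 (limma adjusted p = 0.532). Rgs1 was called, with slide as a block, in each of these except with Pam2CSK4, where the difference was -0.08.

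Rgs18, an R4 member known from platelets and megakaryocytes, fell with TLR2.CD86. It was at -0.53 and -0.44 on the unstimulated arrays, -0.66 and -1.13 with Pam2CSK4, -0.83 and -1.07 with anti-CD86, and -1.12 and -1.44 with TLR2.CD86. It was at -0.67 and -0.99 with anti-CD40 and -0.92 and -1.05 with TLR2.CD40. The TLR2.CD86 arrays held the lowest level, and the Pam2CSK4 arrays were far apart. Rgs18 fell by 0.79 ± 0.20 with TLR2.CD86 (limma adjusted p = 0.0431), and by 0.64 within slide 1. With TLR2.CD40 the difference was -0.50 (limma adjusted p = 0.122), with anti-CD40 it was -0.35 (limma adjusted p = 0.257), and with anti-CD86 it was -0.46. Rgs18 was also called, with slide as a block, with TLR2.CD40 (-0.50, limma adjusted p = 0.00246) and with anti-CD86 (-0.30, limma adjusted p = 0.0375).

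The second Rgs18 probe gave a smaller spread and more calls. The first 30 of 60 bases of each probe are shown, because the same transcript (NM_022881) was called against unstimulated cells in 1 comparison by the brighter probe and in 3 by the dimmer.
Rgs18 brightest probe (P541161): tgcttgaacgatgaagatggcatactttca
Rgs18 other probe (P325457): ttacataatgatggattgaggcttatagaa
The dimmer probe was at -0.53 and -0.59 on the unstimulated arrays, -1.39 and -1.45 with TLR2.CD86, -1.02 and -1.14 with anti-CD40, and -1.34 and -1.62 with TLR2.CD40. It fell by 0.86 ± 0.12 with TLR2.CD86 (limma adjusted p = 0.0111), by 0.52 ± 0.12 with anti-CD40 (limma adjusted p = 0.0270) and by 0.92 ± 0.12 with TLR2.CD40 (limma adjusted p = 0.00234). It was also lower with TLR2.CD40 than with Pam2CSK4 (difference -0.50 ± 0.12, limma adjusted p = 0.0392), and it passed in the test over the 6 conditions (limma adjusted p = 0.0102). Both probes were lower in all 5 stimulations, and their calls coincided for TLR2.CD86.

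**Figure D2:**
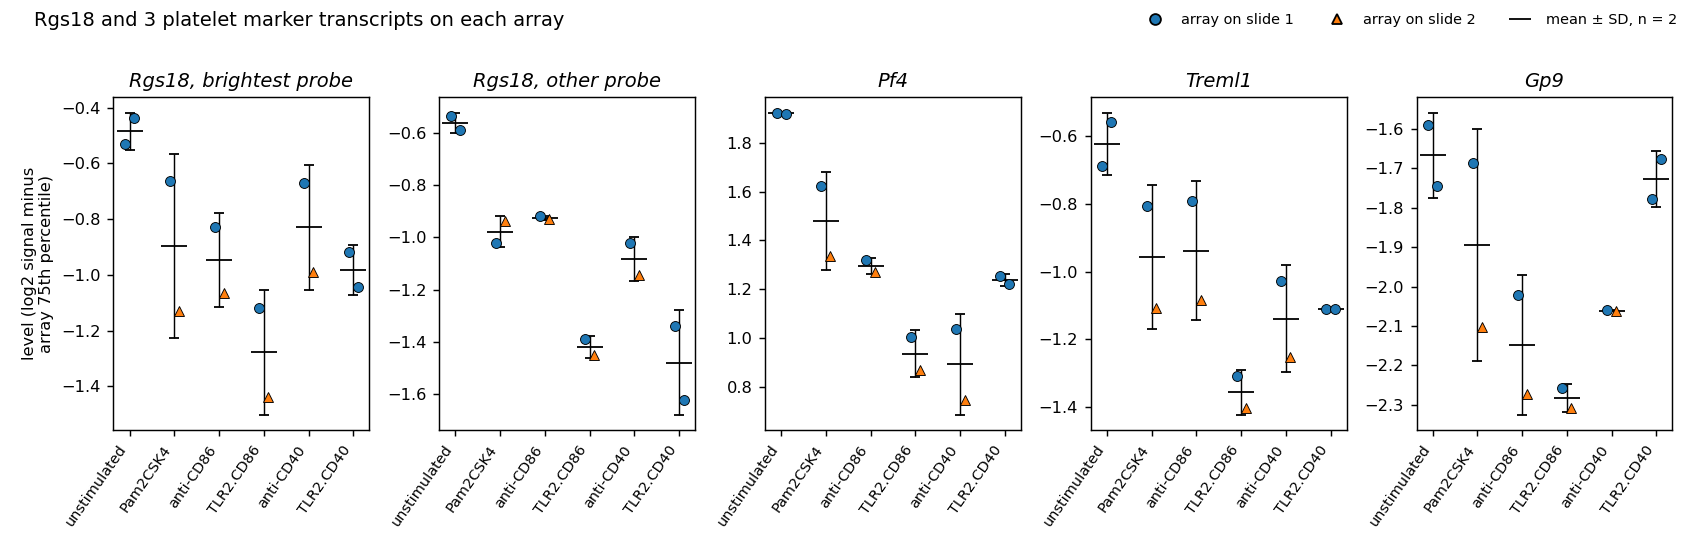
Level (y axis, log2 signal minus the 75th percentile of the array) of both Rgs18 probes and of the platelet markers Pf4, Treml1 and Gp9 on the 12 arrays, by condition (x axis). Circles are arrays on slide 1, triangles are arrays on slide 2, and bars are mean and SD of 2 arrays. Pf4 lies at 1.92 on both unstimulated arrays and at 1.00 and 0.87 with TLR2.CD86.

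Some transcripts of platelets were also lower in stimulated cells. Of 9 platelet and megakaryocyte markers, 8 were tested, and 3 were lower with TLR2.CD86 and 1 with anti-CD40, while 1 was lower and 1 higher with TLR2.CD40. With slide as a block 4 were lower and 1 higher with TLR2.CD86, and 2 were lower and 1 higher with anti-CD86. With TLR2.CD40 2 were lower and 1 higher, with anti-CD40 2 were lower, and with Pam2CSK4 1 was lower. The 3 markers named here had the largest called changes. Pf4 (platelet factor 4) was at 1.92 on both unstimulated arrays and fell by 0.99 with TLR2.CD86 (limma adjusted p = 0.0113), by 1.03 with anti-CD40 (limma adjusted p = 0.00504) and by 0.69 with TLR2.CD40 (limma adjusted p = 0.0135). Treml1, a receptor of platelet granules, fell by 0.73 with TLR2.CD86 (limma adjusted p = 0.0278), and Gp9, a subunit of the von Willebrand factor receptor, fell by 0.62 (limma adjusted p = 0.0462). The summed signal of the list, relative to the 75th percentile, was 5.35 to 5.84 in unstimulated cells, 3.83 to 4.63 with Pam2CSK4, 3.92 to 3.96 with anti-CD86, 3.08 to 3.39 with TLR2.CD86, 3.25 to 3.40 with anti-CD40 and 3.75 to 3.82 with TLR2.CD40. Gp1ba was not well above background on any array. In these bulk samples fewer cells of a type and less RNA per cell cannot be told apart, and the part of platelets in the Rgs18 values was not tested.

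Some transcripts of other cells were also lower in stimulated cells, but not those of every list. NK cell markers were lower in 3 of 5 with TLR2.CD86 and in 3 of 5 with anti-CD40 and in 1 of 5 with TLR2.CD40, among them Gzma (granzyme A), which fell by 0.64 with anti-CD40 (limma adjusted p = 0.00691). Their summed signal was 18.9 to 19.1 in unstimulated cells, 10.8 to 12.9 with TLR2.CD86 and 11.5 to 13.8 with anti-CD40. It was 14.5 to 16.3 with Pam2CSK4, 12.5 to 14.3 with anti-CD86 and 14.4 to 15.0 with TLR2.CD40. Under the slide block 3 NK cell markers were lower with anti-CD86, 4 with TLR2.CD86, 3 with anti-CD40 and 3 with TLR2.CD40. The summed signal of T cell markers was 26.8 to 27.0 in unstimulated cells, 20.2 to 23.8 with Pam2CSK4, 17.9 to 21.2 with anti-CD86, 16.1 to 20.6 with TLR2.CD86, 17.4 to 23.0 with anti-CD40 and 22.1 to 22.8 with TLR2.CD40. Of the 7 T cell markers, Thy1 was lower (-0.75, limma adjusted p = 0.0329) and Cd4, a dim probe, higher (0.87, limma adjusted p = 0.049999) with TLR2.CD86, and 0 were called in the other comparisons. The block for slide gave 3 lower and 1 higher with TLR2.CD86, 2 lower with anti-CD86, 2 with anti-CD40 and 3 with TLR2.CD40. The summed signal of myeloid markers was 346 to 374 in unstimulated cells and 288 to 407 in the stimulated cells, highest with TLR2.CD40 (357 to 407). Of these 9 markers 4 were lower with TLR2.CD86, 4 with TLR2.CD40, 2 with anti-CD40 and 1 with anti-CD86. Adding the slide block gave 2 lower with Pam2CSK4, 3 with anti-CD86, 4 with TLR2.CD86, 4 with anti-CD40 and 4 with TLR2.CD40. It gave 1 higher with Pam2CSK4, 1 with TLR2.CD86 and 1 with TLR2.CD40. Emr1, a macrophage receptor, fell by 0.90 with TLR2.CD86 (limma adjusted p = 0.0154). B cell markers summed to 356 to 385 in unstimulated and 333 to 491 in stimulated cells, and 1 of the 8, Fcrla, fell by 2.01 with anti-CD40 (limma adjusted p = 0.000174) and by 2.08 with TLR2.CD40 (limma adjusted p = 2.53e-05). With the block 3 B cell markers were higher with Pam2CSK4, 4 with anti-CD86, 5 with TLR2.CD86, 2 with anti-CD40 and 3 with TLR2.CD40. The block also gave 1 B cell marker lower with TLR2.CD86, 3 with anti-CD40 and 1 with TLR2.CD40. Red cell markers summed to 85.1 to 85.5 in unstimulated and 58.8 to 107 in stimulated cells, and 0 of 4 tested were called without the block. Under it 3 were higher with TLR2.CD86 and 1 with TLR2.CD40, and 1 was lower with anti-CD86. Plasma cell markers summed to 198 to 220 in unstimulated and 179 to 262 in stimulated cells. Of these 4 markers 1 was lower with anti-CD40 and 1 with TLR2.CD40. The slide block gave 1 lower with Pam2CSK4, 2 with TLR2.CD86, 2 with anti-CD40 and 2 with TLR2.CD40. It gave 1 higher with anti-CD86 and 1 with TLR2.CD40. The part of these cells in the values of the members was not tested.

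Rgs14 and Rgs10 belong to the R12 subfamily. Rgs14, which also carries a motif that binds inactive Gi alpha subunits, was at 2.37 and 2.45 on the unstimulated arrays. It was at 2.20 and 1.99 with Pam2CSK4, 2.16 and 2.03 with anti-CD86, 2.18 and 1.96 with TLR2.CD86, 1.96 and 1.65 with anti-CD40, and 2.16 and 2.23 with TLR2.CD40. The anti-CD40 arrays were the lowest, and the TLR2.CD40 arrays were nearer to the unstimulated ones. Rgs14 fell by 0.61 ± 0.15 with anti-CD40 (1.52-fold, limma adjusted p = 0.0304), and by 0.45 within slide 1. The other 4 differences lay between -0.22 and -0.34 and did not pass. The block for slide added calls with TLR2.CD86 (-0.23, limma adjusted p = 0.0357) and TLR2.CD40 (-0.22, limma adjusted p = 0.0287). The probe carries the RefSeq accession of Rgs14 itself (NM_016758), which matters because Rgs14 was once also a name of Rgs16.

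Rgs10, a small member that acts on Gi alpha subunits, was at 4.12 and 4.19 on the unstimulated arrays. It was at 3.99 and 3.83 with Pam2CSK4, 3.72 and 3.67 with anti-CD86, 3.84 and 3.70 with TLR2.CD86, 3.91 and 3.66 with anti-CD40, and 4.12 and 4.01 with TLR2.CD40. The TLR2.CD40 arrays overlapped the unstimulated arrays, and the arrays of the other stimulations were all lower. None of its differences passed the limma test. The largest was -0.45 ± 0.13 with anti-CD86 (adjusted p = 0.0928 in limma), followed by -0.38 with TLR2.CD86 (adjusted p = 0.0885 in limma) and -0.37 with anti-CD40 (adjusted p = 0.0806 in limma). With TLR2.CD40 it was -0.09. Rgs10 was called lower, with slide as a block, with anti-CD86, TLR2.CD86 and anti-CD40.

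Rgs19, also known as GAIP, interacts with Gi alpha subunits and belongs to the RZ subfamily. It was at 0.51 and 0.58 on the unstimulated arrays, 0.51 and 0.23 with Pam2CSK4, 0.56 and 0.36 with anti-CD86, 0.57 and 0.09 with TLR2.CD86, 0.13 and -0.18 with anti-CD40, and 0.05 and 0.29 with TLR2.CD40. Only the conditions with anti-CD40 lay below both unstimulated arrays on all of their arrays. The difference was -0.57 ± 0.20 with anti-CD40 (limma adjusted p = 0.0867) and -0.37 with TLR2.CD40 (limma adjusted p = 0.235). With slide as a block both were called, at -0.41 (limma adjusted p = 0.0251) and -0.37 (limma adjusted p = 0.0232). The dimmer Rgs19 probe differed by -0.03 with anti-CD40, by -0.24 with TLR2.CD40 and by 0.38 with TLR2.CD86 (limma adjusted p = 0.145 for TLR2.CD86). The 2 probes were both below 0 with anti-CD40 and TLR2.CD40, and had opposite signs with Pam2CSK4, anti-CD86 and TLR2.CD86. Under the slide block the dimmer probe was called higher with TLR2.CD86 (0.49, limma adjusted p = 0.0115) and with anti-CD86 (0.35, limma adjusted p = 0.0426).

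Rgs3, an R4 member that acts on Gi and Gq and is made in long and short forms, has 5 probes on the array. The first 30 of 60 bases of all 5 probes are shown, since their differences were not all in the same direction. Where each probe lies in the transcripts, and so which forms it detects, is not known here. The files give P211980 as a probe of transcript variant 1 (NM_019492) and the other 4 as probes of transcript variant 2 (NM_134257).
Rgs3 variant 2, brightest probe (P522134): gagcttcctgcaggacaagatctccctccc
Rgs3 variant 1 (P211980): tgagtcctttggccctttgggagctggaat
Rgs3 variant 2 (P253320): gagcatcacccgaggctgctttgacttggc
Rgs3 variant 2 (P261868): aagtggagcgagtccctggaaaagttgctg
Rgs3 variant 2 (P223583): gaagatctttgctaaattcatcgcaatcca
The brightest probe was at 1.79 and 1.82 on the unstimulated arrays, 2.03 and 2.61 with Pam2CSK4, 1.75 and 2.19 with anti-CD86, 2.03 and 2.75 with TLR2.CD86, 1.90 and 1.97 with anti-CD40, and 2.03 and 1.94 with TLR2.CD40. The slide 2 arrays of Pam2CSK4, anti-CD86 and TLR2.CD86 stood highest. The differences were 0.52 ± 0.27 with Pam2CSK4 and 0.58 ± 0.27 with TLR2.CD86 (limma adjusted p = 0.373 and 0.190), and 0.17, 0.13 and 0.18 with anti-CD86, anti-CD40 and TLR2.CD40. The sign was not kept in every setting. With slide as a block the difference was -0.06 with anti-CD86 and -0.10 with anti-CD40, and under median scaling it was -0.44 with anti-CD40.

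Among the other Rgs3 probes, P261868 was higher with anti-CD40 (0.56 ± 0.15, limma adjusted p = 0.0411). It was at -2.11 and -2.25 on the unstimulated arrays and at -1.64 and -1.60 with anti-CD40, so the arrays did not overlap. The probe of variant 1 was at 1.01 and 1.09 on the unstimulated arrays and lower on all 10 stimulated arrays, from 0.38 to 0.88, with differences of -0.38 to -0.54 that did not pass (limma adjusted p of 0.0897 to 0.342). All 4 probes of variant 2 had differences above 0 in each of the 5 comparisons, and the probe of variant 1 had differences below 0 in each. With slide as a block the probe of variant 1 was called lower with anti-CD86, TLR2.CD86 and TLR2.CD40, whereas P261868 and P253320 were called higher with all stimulations except TLR2.CD40 (0.49 to 0.63 and 0.54 to 0.68). P223583 was well above background on 9 of the 12 arrays only.

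**Figure D3:**
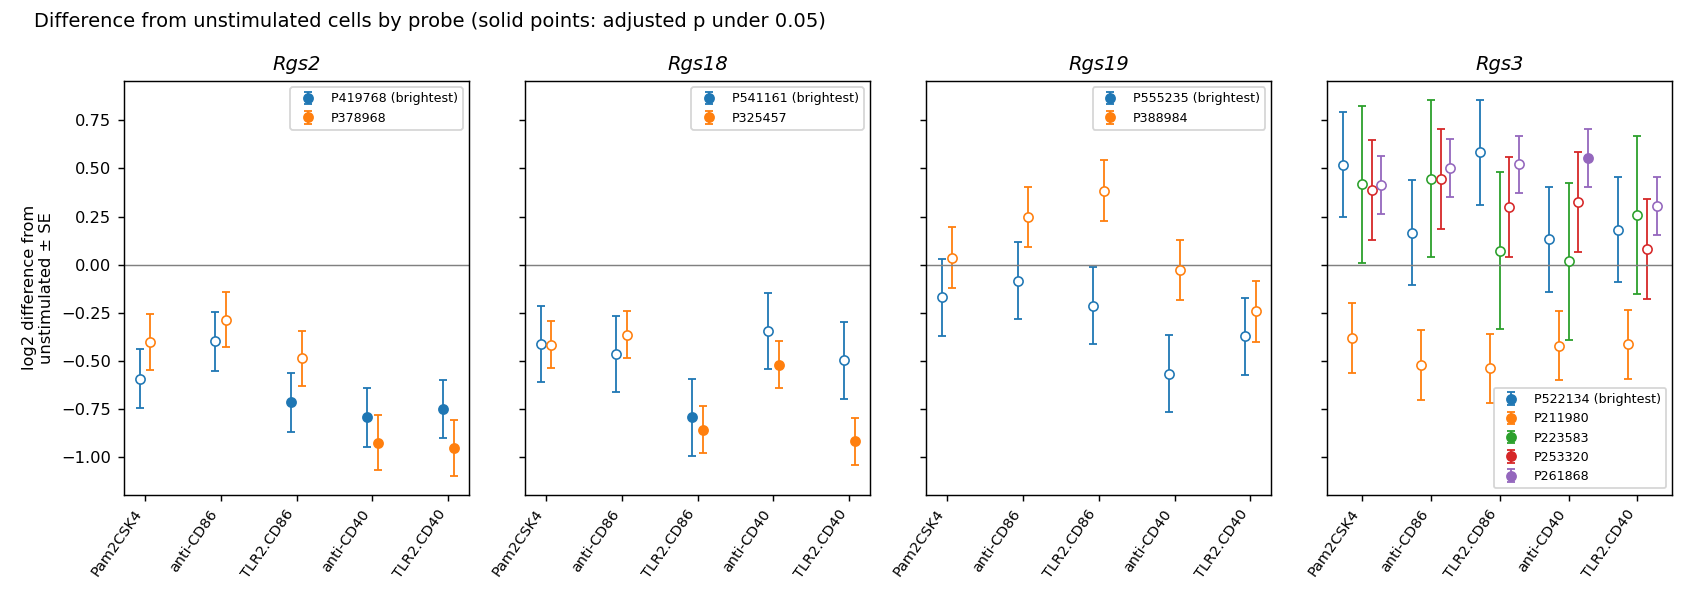
Difference from unstimulated cells (y axis, log2, ± SE) by probe for the 4 members with more than 1 probe, in each of the 5 stimulations (x axis). Solid points have an adjusted p under 0.05. Both probes of Rgs2 and of Rgs18 lie below 0 in every stimulation. The probes of Rgs19 lie on opposite sides of 0 for Pam2CSK4, anti-CD86 and TLR2.CD86. The Rgs3 variant 1 probe (P211980) lies below 0 while the 4 variant 2 probes lie above.

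Whether a second signal changed the members was addressed by comparing each combination with its single signals. By their brightest probes, 0 of the 8 members passed the limma test for TLR2.CD86 against Pam2CSK4 (0.0633% of all probes were called), TLR2.CD86 against anti-CD86 (0.225%), TLR2.CD40 against Pam2CSK4 (9.97%) or TLR2.CD40 against anti-CD40 (2.91%). At an unadjusted p under 0.05 there were 0, 1, 0 and 1 members, against 10.4%, 8.90%, 26.8% and 19.8% of all probes. The one for anti-CD86 was Rgs16, which was lower with TLR2.CD86 by 0.57 ± 0.14 (limma adjusted p = 0.267), a difference of -0.54 within slide 1 and -0.60 within slide 2. The one for anti-CD40 was Rgs14, which was 0.39 ± 0.15 higher with TLR2.CD40 (limma adjusted p = 0.223).

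The interaction is the effect of a combination minus the sum of the effects of its single signals on the log2 scale. By their brightest probes, 0 of the 8 members passed the limma test for the interaction of anti-CD86 and Pam2CSK4 (0.0190% of probes called) or of anti-CD40 and Pam2CSK4 (1.16% of probes called). At an unadjusted p under 0.05 there were 0 and 4 members, against 4.29% and 19.4% of all probes. Those 4, none of which passed, were Rgs14 (0.70 ± 0.21, limma adjusted p = 0.159), Rgs2 (0.64 ± 0.22, limma adjusted p = 0.193), Rgs16 (0.59 ± 0.19, limma adjusted p = 0.185) and Rgs10 (0.53 ± 0.18, limma adjusted p = 0.194). Under the slide block 2 other Rgs3 probes were called with interactions below 0, P253320 (-1.11, limma adjusted p = 0.00435) and P261868 (-0.82, limma adjusted p = 0.0406).

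**Figure D4:**
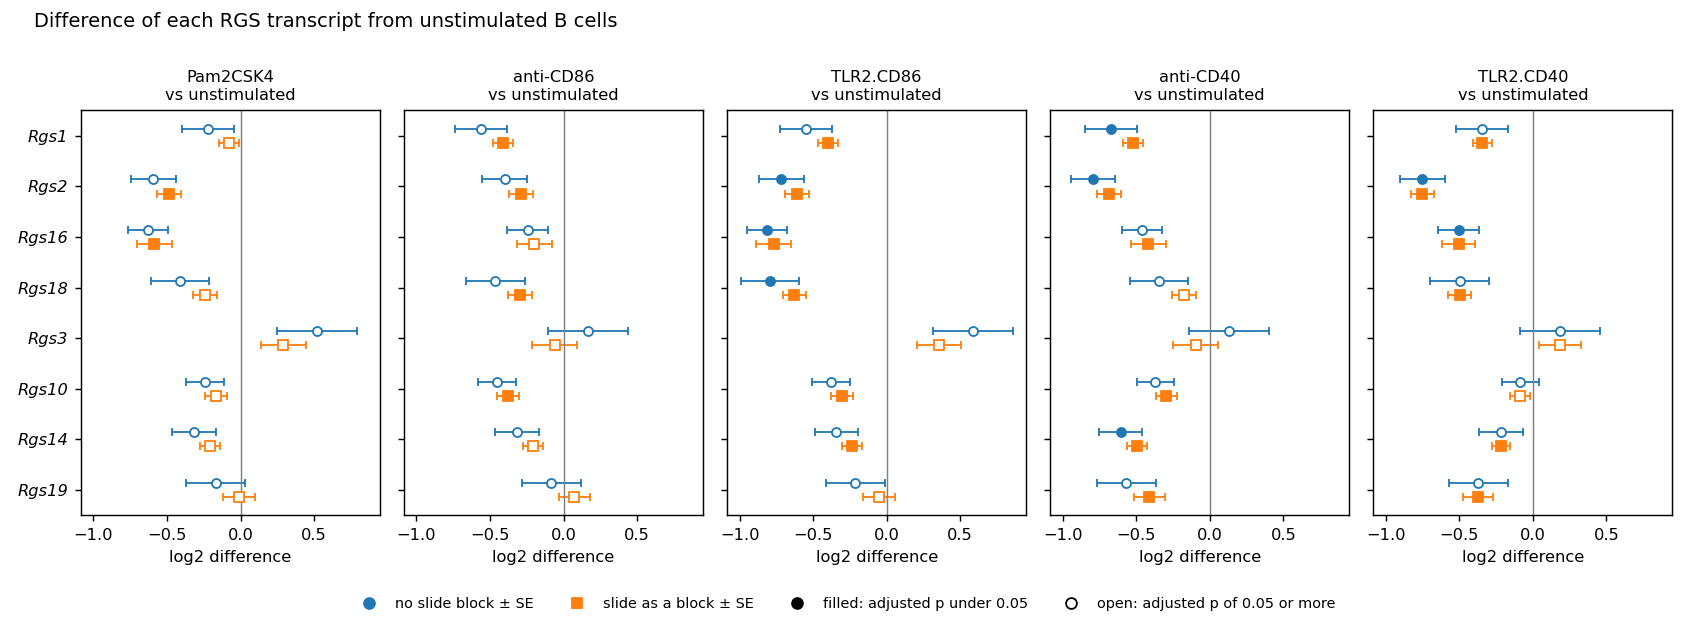
Difference of each member from unstimulated cells (x axis, log2) in the 5 stimulations, without a slide block (circles) and with slide as a block (squares), ± SE. Filled points have an adjusted p under 0.05. Rgs2 is called lower in all 5 stimulations with the block and in 3 without it, and Rgs3 is not called.

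With slide as a block the residual spread was smaller, and more members and more probes of the whole array were called. The members called lower were 2 with Pam2CSK4 (6.40% of all probes), 4 with anti-CD86 (15.5%), 6 with TLR2.CD86 (20.6%), 6 with anti-CD40 (21.6%) and 6 with TLR2.CD40 (23.7%). In the test over the 6 conditions 7 members were called by their brightest probe, Rgs3 being the exception, against 60.0% of probes. Of the other 4 Rgs3 probes, 3 were called there (limma adjusted p of 0.00167 to 0.0357). By brightest probes and with the block, Rgs1 and Rgs18 were lower with TLR2.CD86 than with Pam2CSK4 (2 of 8, 11.0% of probes). Rgs16 was lower with TLR2.CD86 than with anti-CD86 (1 of 8, 7.74%). Rgs1 and Rgs19 were lower with TLR2.CD40 than with Pam2CSK4 (2 of 8, 31.5%). Against anti-CD40, TLR2.CD40 had Rgs14 higher and Rgs18 lower (2 of 8, 15.2%). Among the other probes, the dimmer Rgs18 probe was called lower in each of these comparisons (-0.44, -0.49, -0.51 and -0.41 in the same order). The dimmer probes of Rgs2 (-0.65) and Rgs19 (-0.38) and Rgs3 probe P253320 (-0.55) were called lower with TLR2.CD40 than with Pam2CSK4. P253320 was also called lower with TLR2.CD40 than with anti-CD40 (-0.48). The interaction of anti-CD40 and Pam2CSK4 was called for Rgs14 (0.49 ± 0.10, limma adjusted p = 0.0361, 1 of 8 against 8.59% of probes), and that of anti-CD86 and Pam2CSK4 for 0 of 8 (0.234%), with 1 at an unadjusted p under 0.05. The unstimulated arrays lay on slide 1 only, so the comparison of a slide 2 array with them rests on the slide term.

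The remaining family members were mostly dim. Of 16 other RGS genes on the array 3 were well above background on all arrays, 8 on none, and 4 were tested. Rgs12, a large member of the R12 subfamily, was at 1.73 and 1.70 on the unstimulated arrays. It fell by 0.71 with TLR2.CD86 (limma adjusted p = 0.0323), by 0.73 with anti-CD40 (limma adjusted p = 0.0222) and by 0.55 with TLR2.CD40 (limma adjusted p = 0.0489). It was the 1 gene of this list that passed in each of these 3 comparisons, and the medians of the 4 genes lay between -0.48 and -0.01 over the 5 stimulations.

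Of 10 G alpha subunits tested, 1 was higher with anti-CD86, 1 was higher and 1 lower with anti-CD40, and 1 was lower with TLR2.CD40. Gna11, a Gq class subunit, accounted for several of these, being higher with anti-CD86 (0.57, limma adjusted p = 0.0419) and lower with anti-CD40 (-0.71, limma adjusted p = 0.00594) and TLR2.CD40 (-0.72, limma adjusted p = 0.00327). Gnaz, a Gi class subunit, was not well above background on either unstimulated array and was at least 1.26-fold higher with anti-CD40 (limma adjusted p = 0.0395), a bound set against the dimmest probe above background on each of those arrays, or the probe's own signal where higher. The medians of the 10 subunits lay between -0.13 and 0.06 over the 5 comparisons.

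Of 10 G beta and gamma subunits tested, 2 were lower with TLR2.CD86, 2 were lower and 1 higher with anti-CD40, and 2 were lower with TLR2.CD40. Gng2, a gamma subunit, was at 4.29 and 4.40 on the unstimulated arrays and 3.44 and 3.04 with anti-CD40 (limma adjusted p = 0.0108), and it fell by 0.85 with TLR2.CD40 (limma adjusted p = 0.0191). Gng12 fell by 0.49 with TLR2.CD86 (limma adjusted p = 0.0259), 0.62 with anti-CD40 (limma adjusted p = 0.00861) and 0.86 with TLR2.CD40 (limma adjusted p = 0.00141). Gng4, not well above background on either unstimulated array, was at least 1.57-fold higher with anti-CD40 on the same terms (limma adjusted p = 0.0202). The medians of the 10 subunits lay between -0.48 and -0.12.

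Of the receptors upstream, Gi-coupled trafficking receptors, 13 were tested. With TLR2.CD86 2 were lower, with anti-CD40 2 were higher and 3 lower, and with TLR2.CD40 3 were higher and 4 lower. S1pr1, the sphingosine 1-phosphate receptor of lymphocyte egress, fell by 1.90 with anti-CD40 (limma adjusted p = 0.00117), with a difference of -1.66 with TLR2.CD40 (limma adjusted p = 0.000786), whereas Cxcr5, which draws B cells to follicles, was 1.09 and 1.49 higher (limma adjusted p = 0.00634 and 0.000959). S1pr4, a receptor of the same lipid, fell by 1.02 with anti-CD40 (limma adjusted p = 0.00882) and by 1.47 with TLR2.CD40 (limma adjusted p = 0.00125). The medians of the 13 receptors lay between -0.36 and 0.07.

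Without slide as a block, other modulators and effectors of G proteins were lower where they were called, with the exception of Pde4d. With the block 1 to 3 of the 13 effectors tested were higher and 1 to 5 lower in each comparison with unstimulated cells. Of the 12 modulators tested, 1 was then higher with anti-CD86 and 1 with TLR2.CD86, and 0 to 7 were lower. Of 12 other modulators tested 2 were lower with anti-CD40 and 1 with TLR2.CD40, among them Ric8, an exchange factor for alpha subunits (-0.51 with anti-CD40, limma adjusted p = 0.0205; -0.43 with TLR2.CD40, limma adjusted p = 0.0295). Gpsm3, which binds inactive Gi alpha subunits, fell by 0.68 with anti-CD40 (limma adjusted p = 0.0269). Of 13 effectors 1 was higher and 1 lower with anti-CD86, 1 lower with TLR2.CD86, 1 higher and 3 lower with anti-CD40, and 3 lower with TLR2.CD40. Adcy7, an adenylyl cyclase of immune cells, fell by 0.88 with anti-CD40 (limma adjusted p = 0.00787) and 0.84 with TLR2.CD40 (limma adjusted p = 0.00550), and Pde4d, a phosphodiesterase that degrades cyclic AMP, rose by 1.03 with anti-CD86 (limma adjusted p = 0.0241) and by 0.50 with anti-CD40 (limma adjusted p = 0.0376). Rhoh, a GTPase of blood cells, fell by 0.94 with anti-CD40 (limma adjusted p = 0.00226) and 0.84 with TLR2.CD40 (limma adjusted p = 0.00164). The medians lay between -0.37 and -0.19 for the 12 modulators and between -0.19 and -0.09 for the 13 effectors.

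Several members neighbour each other in the genome. In the order of protein-coding genes of the RefSeq table (assembly GRCm38.p6), Rgs2 is followed by Rgs13, Rgs1, Rgs21 and Rgs18, so that 3 of the members lie in 1 cluster. All 8 array accessions were found in that table.

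RefSeq promoter sequence of GRCm38.p6 (300 bases around each start) was given for 5 members in 8 entries, Rgs2, Rgs3, Rgs10, Rgs16 and Rgs19. Both strands were searched for the NF-kB motif, the cyclic AMP response element TGACGTCA, its short form TGACG and the AP-1 motif TGANTCA. A whole element TGACGTCA also contains the short form, so these overlap. The RefSeq table holds 32851 promoters, of which 8.46% held the NF-kB motif, 1.79% the whole element, 20.8% the short form and 7.81% the AP-1 motif. Rgs2 was the member with matches, both to the short form. They are shown because Rgs2 was the member called in the most comparisons, with the matching bases in capitals, read along the strand of the gene (minus strand, chromosome 1). The first match reads TGACG on the opposite strand.
Rgs2 promoter, chr1:144004317-144004346: atgcggcgcctaCGTCAacagcgccctcgc
Rgs2 promoter, chr1:144004199-144004228: ttggggcgtggcTGACGcctccaggtcccg
The promoter entry of Rgs16, the other member called in the test over all conditions, held no match to these motifs in its window.

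The 3 genes whose level followed Rgs2 most closely over the 12 arrays were Dctn5 (r = 0.990), Ypel5 (r = 0.988) and Ttc33 (r = 0.986), and for Rgs16 they were Tmem184b (r = 0.971), Golph3l (r = 0.936) and Pla2g4a (r = 0.929). These are Pearson correlations among 14601 probes of named genes well above background on all arrays, given as a description. The 12 points share their slides, conditions and scaling.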

How the data were processed

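Cy3-labelled RNA was hybridised by the authors to 12 one-colour Agilent custom mouse arrays (annotated to mm9), and the 12 scanner files they deposited came from Feature Extraction 10.5.1.1. Per the file headers, the value used was the processed intensity, which that software had corrected for background. A table of log2 values deposited by the authors served as an alternative. It held the same signal minus a constant for each array, close to the log2 of the 75th percentile, and gave the same counts of members called. Intensity was taken to log2, and the log2 of the 75th percentile of its array was subtracted. Control spots and outlier spots (5 to 35 on an array) were removed before spots of 1 probe were averaged. Of 61307 probes, 31669 exceeded background by the scanner's flag in both replicates of 1 condition or more, and 70 of them that lacked a value were dropped.

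Tests were made with limma (version 3.58.1, R 4.3.3) over 12 arrays with a coefficient for each condition, empirical Bayes moderation and Benjamini-Hochberg adjustment over 31599 probes. The methods name a one-way test. Each script that tests all probes was tested on simulated data. The alternatives were median and quantile scaling, normexp correction (offset 50), the filter on dim probes, blocks for slide and replicate number, other variance models, all probes of a gene, and leaving out each array. Between 46.6% and 60.6% of spots on an array were well above background, and the 2 arrays of a condition limit the precision. Python 3.11.15 with pandas 2.3.3, numpy 2.4.6 and matplotlib 3.10.9 made the tables and figures. The isotype control is not analysed here.

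All members are named, and, from each other list, some of the up to 3 called genes with the largest change against unstimulated cells. The members and the lists were chosen with earlier results of these data known.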

Additional observations from a re-analysis of the deposited data

How the results depend on the processing

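Counts are members called by limma by their brightest probe. Their order is Pam2CSK4, anti-CD86, TLR2.CD86, anti-CD40 and TLR2.CD40 against unstimulated cells, and then over the 6 conditions. The counts above were 0, 0, 3, 3, 2 and 2. They were 2, 4, 6, 6, 6 and 7 with slide as a block, and 0, 2, 5, 5, 3 and 5 with the replicate number as a block. Over 15 pairs of conditions, deviations of arrays with the same number correlated at -0.11 to 0.67, with 6 above 0.1, so the number was not taken to pair arrays. Under median scaling and with no filter on dim probes all 6 counts were 0, with 0 to 6 members at an unadjusted p under 0.05 in limma. Normexp correction gave 6 for anti-CD40 and 1 for TLR2.CD40, quantile scaling gave 5 for anti-CD40, and the one-way test gave 1. When the compared conditions were fitted alone, TLR2.CD86 and anti-CD40 had 0 (4 and 5 at an unadjusted p under 0.05 in limma) and TLR2.CD40 had 4. Leaving out an array gave 0 to 2 for TLR2.CD86, 0 to 4 for anti-CD40, 0 for TLR2.CD40 and 0 to 2 over the 6 conditions, where it was 0 without either array of unstimulated, anti-CD86 or TLR2.CD40 cells or the slide 2 array of Pam2CSK4. With slide as a block the combinations against Pam2CSK4, anti-CD86, Pam2CSK4 and anti-CD40 had 2, 1, 2 and 2 members, and the interaction of anti-CD40 and Pam2CSK4 had 1. Calls over all probes changed as well. They were 46, 686, 3409, 5324, 5763 and 6447 in the first order above, and 3510, 8991, 11084, 11777, 14996 and 18946 with slide as a block. Median scaling gave 464 for TLR2.CD40 and 1013 over the 6 conditions. The compared conditions alone gave 0 for TLR2.CD86 and 0 for anti-CD40. The cause of these changes was not tested. Within-slide values carry no test and no count.

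Of 620 values of 40 differences from unstimulated cells, 12 reversed, all of Rgs3 and Rgs19. With anti-CD86, Rgs3 was at -0.062 with slide as a block, -0.051 within slide 1, and -0.051 to 0.38 when an array was left out. With anti-CD40 it was at -0.10 with slide as a block and -0.44 under median scaling. With anti-CD86, Rgs19 was at 0.074 with slide as a block, 0.081 as the median of its probes, 0.014 within slide 1, and -0.18 to 0.014 when an array was left out. With TLR2.CD86 it was at 0.085 as the median of its probes, 0.029 within slide 1, and -0.46 to 0.029 when an array was left out. No value of the other 6 members reversed, and 51 that had been called lost and 34 gained the call. The 51 belong to the differences called without a slide block, each of which kept its call in 6 to 8 of 14 alternatives with a p-value. These 14 include the authors' log2 values, which hold the same signal with nearly the same scaling and so could hardly lose a call.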
